A study of Mus musculus with 6 samples.

Results

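The proteasome genes described here are the rows of the deposited exon count table whose symbol begins with Psm, then a letter from a to g, then a digit, apart from the immunoproteasome genes Psmb8, Psmb9 and Psmb10. This rule took 47 of 24940 genes. Of these, 16 encode subunits of the core particle, 17 encode subunits of the regulatory particle, 7 encode assembly chaperones and 6 encode other activators or an inhibitor. The remaining match, Psmc3ip, encodes a recombination protein named for its binding to a subunit and is no subunit itself. The data come from polyadenylated RNA of cultured hepatic stellate cells, the pericytes of liver sinusoids, taken from wild-type female mice of the C57BL/6JBomTac strain. In 3 libraries (A, B and C) the cells had been given 5 µM forskolin, which activates adenylyl cyclase, 2 days after isolation, and in 3 libraries (also A, B and C) they had been given DMSO at 1:1000. In both groups the medium was replaced after 3 h and RNA was collected 21 h later. Nothing in the labels says that the letters stand for separate mice or cultures. The spread behind every p-value is therefore that between libraries, and it may be only technical.

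The proteasome degrades proteins tagged with ubiquitin. Its barrel-shaped core particle is a stack of alpha rings, which gate the entrance, and beta rings, which hold the proteolytic sites. The regulatory particle caps the barrel: its base unfolds substrates with a ring of ATPases, and its lid removes the ubiquitin chain. Dedicated chaperones build the rings, and other activators can take the place of the regulatory particle. Transcription of subunit genes is known to respond to the factor encoded by Nfe2l1, which raises them together when proteasomes are inhibited.

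Total deposited counts ranged from 10890193 to 12954310 in forskolin libraries and from 13001358 to 15090262.5 in vehicle libraries, so every vehicle library was deeper than every forskolin library. The 9 stellate cell markers examined were all tested and summed to 3834 to 3950 CPM (counts scaled to the TMM-adjusted library size, the scale of every level below) with forskolin and 3891 to 4099 CPM with vehicle. Within that sum 4 markers were higher, among them Hgf (log2 fold change 1.02) and Dcn (0.34), and 4 were lower, among them Des (-0.83), Lum (-0.67) and Pdgfrb (-0.43). None of 8 hepatocyte or 6 lymphocyte markers passed the filter on low counts, and their sums stayed at or under 0.456 CPM in every library, with Apoc3, Cyp3a11 and Serpina1a at 0. The 9 macrophage markers summed to 37.8 to 39.1 CPM with forskolin and 34.3 to 36.8 CPM with vehicle, with Marco at 0 and Clec4f and Vsig4 at or near it; Cd68 (log2 fold change 0.50) and Csf1r (0.47) were higher and Lyz2 (-1.36) was lower. The 8 sinusoidal endothelial markers summed to 15.5 to 16.0 CPM with forskolin and 16.8 to 19.8 CPM with vehicle. Of the 4 tested, Stab2 (log2 fold change 1.30) was higher, Kdr (-1.54) and Lyve1 (-0.63) were lower, and Stab1 (0.07) was neither. The 6 cholangiocyte markers summed to 392 to 427 CPM with forskolin and 137 to 151 CPM with vehicle, of which Spp1 alone gave 372 CPM with forskolin and 72.5 CPM with vehicle. Krt19 went the other way, with 35.1 CPM with forskolin and 71.3 CPM with vehicle, while Epcam, Krt7 and Cftr each averaged under 0.4 CPM in both groups. The part of these cells in the results below was not tested, and in bulk RNA fewer cells of a type and less RNA per cell cannot be told apart.

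Of the 47 genes, 46 passed the filter on low counts. After forskolin 18 of these were higher and 5 were lower, and the log2 fold changes (forskolin over vehicle) ran from -0.34 to 0.68. Calls in the core particle were mostly upward, calls in the regulatory particle went both ways, and the chaperones of the alpha ring showed the largest increases. Over all 13357 genes tested, 24.8% were higher, 25.1% were lower and 49.9% were either (edgeR quasi-likelihood test, adjusted p under 0.05), so calls were common in this comparison. The 46 genes had a median log2 fold change of 0.11, against 0.01 over all genes tested. Together the 47 genes took 0.573 to 0.587% of the deposited counts in forskolin libraries and 0.531 to 0.555% in vehicle libraries, which did not overlap. This share is scaled by the library total alone, without TMM factors. On library sizes alone the median log2 fold change over all genes was 0.051, so the median gene also took a larger share with forskolin.

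**Figure D1:**
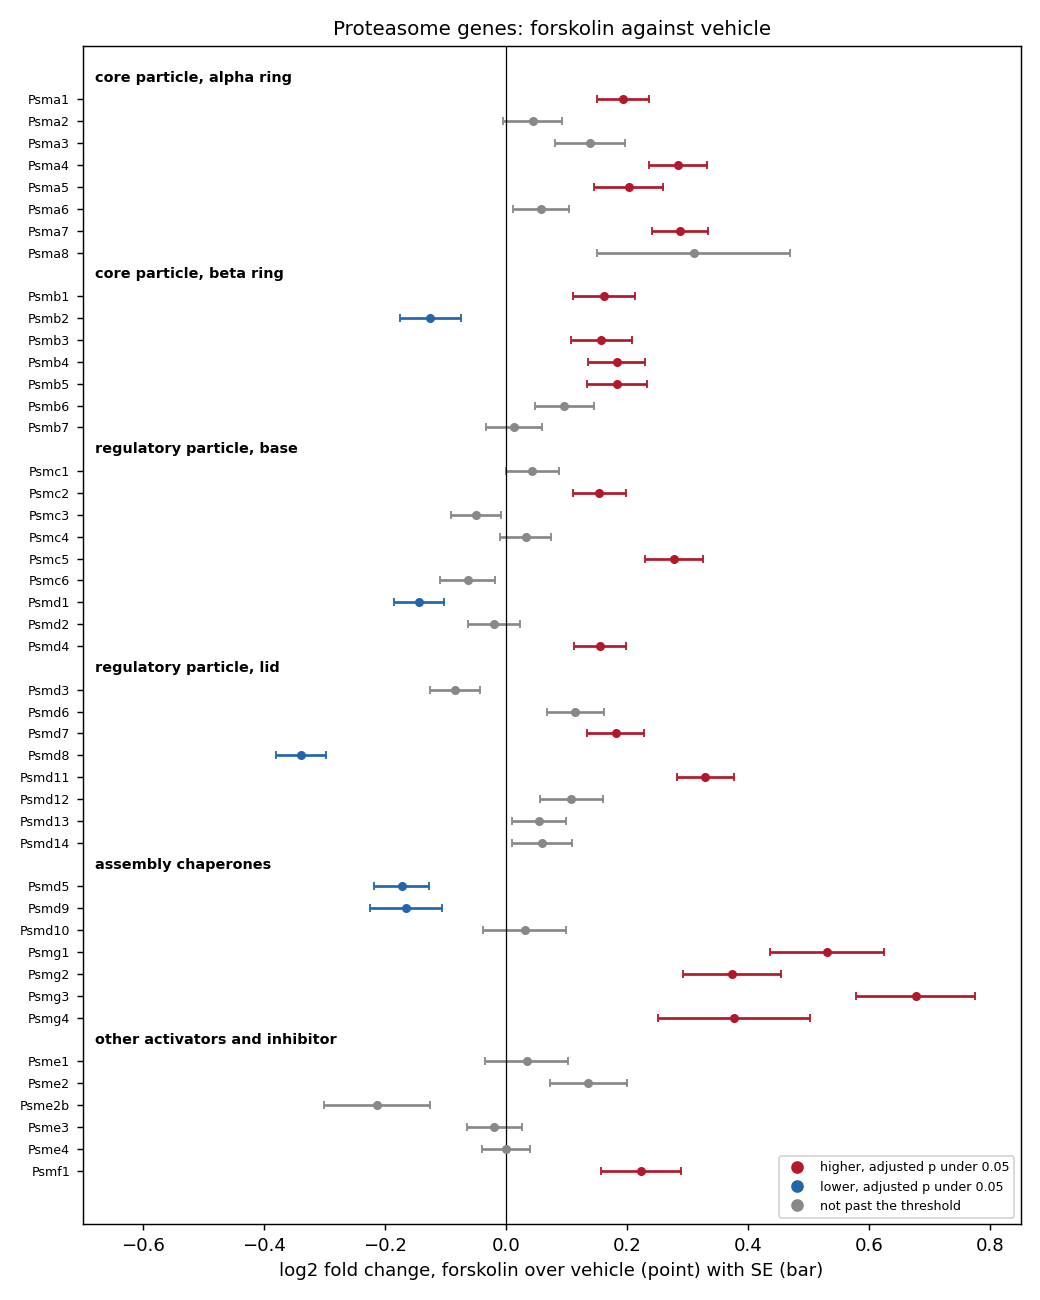
Log2 fold change (forskolin over vehicle, x axis) of the 45 tested proteasome genes other than Psmc3ip, grouped by their place in the complex, with the standard error as a bar. Red points were higher and blue points lower at an edgeR adjusted p under 0.05. Psmg1 and Psmg3 lie farthest to the right, and Psmd8 farthest to the left.

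Promoters are shown for the gene with the largest called change in the core particle (Psma7), in the regulatory particle (Psmd8) and among the chaperones and activators (Psmg3), and for Psmd11, added after its value was seen because it moved against Psmd8. Each is the 250 bases before the RefSeq transcript start on GRCm38.p6, read 5′ to 3′ on the gene's strand, and each start equals that of the deposited transcript. Capitals mark any match, on either strand, to CCAAT (the NF-Y box), TGACNNNGC (the core of the antioxidant response element), TGACGTCA (the cyclic AMP response element) or TGACG, which is a part of the cyclic AMP response element and can overlap TGACNNNGC. The stretches lie at chr2:180042465-180042714, minus strand, for Psma7, chr7:29180674-29180923, minus strand, for Psmd8, chr5:139826895-139827144, minus strand, for Psmg3 and chr11:80428365-80428614, plus strand, for Psmd11.
Psma7: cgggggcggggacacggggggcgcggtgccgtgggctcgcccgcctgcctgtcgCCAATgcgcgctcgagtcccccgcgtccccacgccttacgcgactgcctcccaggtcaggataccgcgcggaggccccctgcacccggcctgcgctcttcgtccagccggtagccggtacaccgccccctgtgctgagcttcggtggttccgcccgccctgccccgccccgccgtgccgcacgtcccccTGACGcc
Psmd8: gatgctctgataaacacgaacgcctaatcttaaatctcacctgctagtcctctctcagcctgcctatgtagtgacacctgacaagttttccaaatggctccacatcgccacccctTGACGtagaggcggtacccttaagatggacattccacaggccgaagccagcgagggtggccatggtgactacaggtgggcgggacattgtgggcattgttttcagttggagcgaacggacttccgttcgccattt
Psmg3: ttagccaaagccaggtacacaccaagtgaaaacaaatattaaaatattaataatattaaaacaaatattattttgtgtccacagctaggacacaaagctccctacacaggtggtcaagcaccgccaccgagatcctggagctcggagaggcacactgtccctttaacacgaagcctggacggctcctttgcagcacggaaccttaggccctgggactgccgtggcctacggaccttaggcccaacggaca
Psmd11: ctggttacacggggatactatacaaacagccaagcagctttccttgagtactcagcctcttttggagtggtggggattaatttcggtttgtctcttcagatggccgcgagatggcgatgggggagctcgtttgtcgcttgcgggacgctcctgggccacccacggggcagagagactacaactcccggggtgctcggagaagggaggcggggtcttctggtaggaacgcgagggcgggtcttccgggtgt
Psma7, which rose, has CCAAT starting 196 bases and TGACG starting 7 bases before the start. Psmd8, which fell, has TGACG starting 135 bases before it, and in the other 2 stretches none of the letters was found.

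RefSeq promoter windows, from 250 bases before to 50 bases after the start, were found for 39 of the 47 genes, in 42 windows. TGACG or its reverse complement was in 19 of these 42 windows (45.2%), against 20.8% of all 32851 windows and 30.4% of the 13212 windows of genes tested here. By particle it was in 7 of 13 core, 6 of 15 regulatory and 6 of 13 windows of chaperones, activators and the inhibitor. The full TGACGTCA was in 0 of the 42 windows, in 1.79% of all windows and in 2.99% of those of tested genes. TGACNNNGC was in 6 windows (14.3%), those of Psmb5, Psmb6, Psmc6, Psmd12, Psmd9 and Psme4, against 12.4% of all windows and 14.5% of those of tested genes. CCAAT was in 14 windows (33.3%), 7 of them of core genes, against 37.4% of all windows and 37.6% of those of tested genes. A match is a run of letters and not a measured binding site.

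In the core particle, 8 of 15 tested genes were higher and 1 was lower, with a median log2 fold change of 0.16. The same call was made upward for 24.8% and downward for 25.1% of all genes. For 9 of the 15 every forskolin library lay above every vehicle library, and for 1 every forskolin library lay below, against 28.8% and 28.3% of all genes tested. Summed over the core particle, the level was 1626, 1586 and 1634 CPM in forskolin A, B and C and 1507, 1409 and 1493 CPM in vehicle A, B and C. The lowest forskolin sum therefore stood above the highest vehicle sum, and the ratio of the means was 1.10. Vehicle B, the deepest library, gave the lowest sum. With log2 library size as a covariate the number of core genes called higher was 3 (Psma1, Psma4 and Psma7) and none was called lower.

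The alpha ring genes, whose products form the outer rings of the barrel, had positive log2 fold changes in 8 of 8 cases (with the library size covariate Psma2 turned to -0.043 and Psma3 to -0.0031), and 4 of them, Psma1, Psma4, Psma5 and Psma7, passed the test. Psma7 (mm10 chromosome 2, 180036367 to 180042464, minus strand) was at 141, 142 and 149 CPM in forskolin libraries and 122, 114 and 118 CPM in vehicle libraries. All forskolin values were above all vehicle values, a difference of 0.29 on the log2 scale with an SE of 0.0457 (edgeR adjusted p = 4.24e-05). Psma4 (chromosome 9, 54950859 to 54958030, plus strand) had 123, 121 and 120 CPM with forskolin and 104, 95.4 and 100.2 CPM with vehicle, a log2 fold change of 0.28 (adjusted p = 6.98e-05). Psma1 rose by 0.19 on the log2 scale to 132 ± 1.22 CPM with forskolin, against 116 ± 1.33 CPM with vehicle (SD, n = 3 each, edgeR adjusted p = 0.00117). Psma5 rose by 0.20 on the log2 scale, with 70.0 ± 2.38 CPM in forskolin libraries and 60.9 ± 2.82 CPM in vehicle libraries.

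The other alpha ring genes did not pass. Psma2, with the smallest change of the ring, was at 120, 117 and 120 CPM with forskolin and 117, 109 and 121 CPM with vehicle (log2 fold change 0.04, edgeR adjusted p = 0.481), so its groups overlapped. Psma6 had a log2 fold change of 0.06 and Psma3 of 0.14 (adjusted p = 0.0574). Psma3 passed with the replicate letter as a block (adjusted p = 0.0379), with library sizes alone (0.0142), with upper-quartile factors (0.024) and without forskolin B (0.0333). Psma8, the testis counterpart of Psma7, was scarce at 7.38, 8.16 and 6.08 CPM with forskolin and 5.76, 6.16 and 5.51 CPM with vehicle. Its log2 change of 0.31 had the widest SE of the particle at 0.159 (edgeR adjusted p = 0.116), and without forskolin C it passed (0.42, adjusted p = 0.0418).

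In the beta ring, which carries the proteolytic sites, 4 of 7 tested genes were higher (Psmb1, Psmb3, Psmb4 and Psmb5) and Psmb2 was lower, against 24.8% and 25.1% of all genes. With TMM scaling, Psmb5, whose product has the chymotrypsin-like site, was the only 1 of the 3 catalytic subunit genes that passed the test. It was at 106, 101 and 99.8 CPM in forskolin libraries and 90.6, 86.6 and 93.2 CPM in vehicle libraries, without overlap (log2 fold change 0.18, SE 0.0498, edgeR adjusted p = 0.00512), although 42.9% of its 50-base stretches are unique among annotated transcripts. Psmb6, which encodes the caspase-like subunit, had 127, 121 and 129 CPM with forskolin and 120.4, 112 and 120.5 CPM with vehicle. Its groups also did not overlap, by a narrow margin at forskolin B, but the log2 change of 0.10 did not pass (adjusted p = 0.112). With library sizes alone (adjusted p = 0.0212) or upper-quartile factors (0.0425) Psmb6 passed, so its failure to pass depends on the scaling. Psmb5 passed with both (adjusted p of 0.000939 and 0.0017) but not with the library size covariate (0.319). Psmb7, which encodes the trypsin-like subunit, had 147, 141 and 150.1 CPM with forskolin and 150.3, 139 and 145 CPM with vehicle (log2 fold change 0.01, SE 0.0462, adjusted p = 0.833), and its groups were interleaved. These 3 changes were not tested against each other.

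Psmb4 (chromosome 3, 94884324 to 94886958, minus strand), which encodes a non-catalytic beta subunit, was at 165, 156 and 162 CPM with forskolin and 149, 135 and 141 CPM with vehicle. It rose by 0.18 in log2 terms with an SE of 0.0471 (edgeR adjusted p = 0.00349), and the groups did not overlap. On the log2 scale Psmb1 rose by 0.16 and Psmb3 by 0.16 (adjusted p = 0.014 for each). The call of Psmb1 was lost without vehicle B (adjusted p = 0.0996), and that of Psmb3 without vehicle B (0.0666) or vehicle C (0.052). Psmb2 went the other way, at 75.6, 79.5 and 79.6 CPM with forskolin and 85.9, 82.9 and 87.4 CPM with vehicle (log2 fold change -0.13, adjusted p = 0.0473). Its call was lost when any library other than forskolin C was left out, with adjusted p-values from 0.0556 to 0.174, and with library sizes alone (0.193). Psmb11, the thymus-specific beta subunit gene, had 3 counts over the forskolin libraries and 0 over the vehicle libraries and was not tested.

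**Figure D2:**
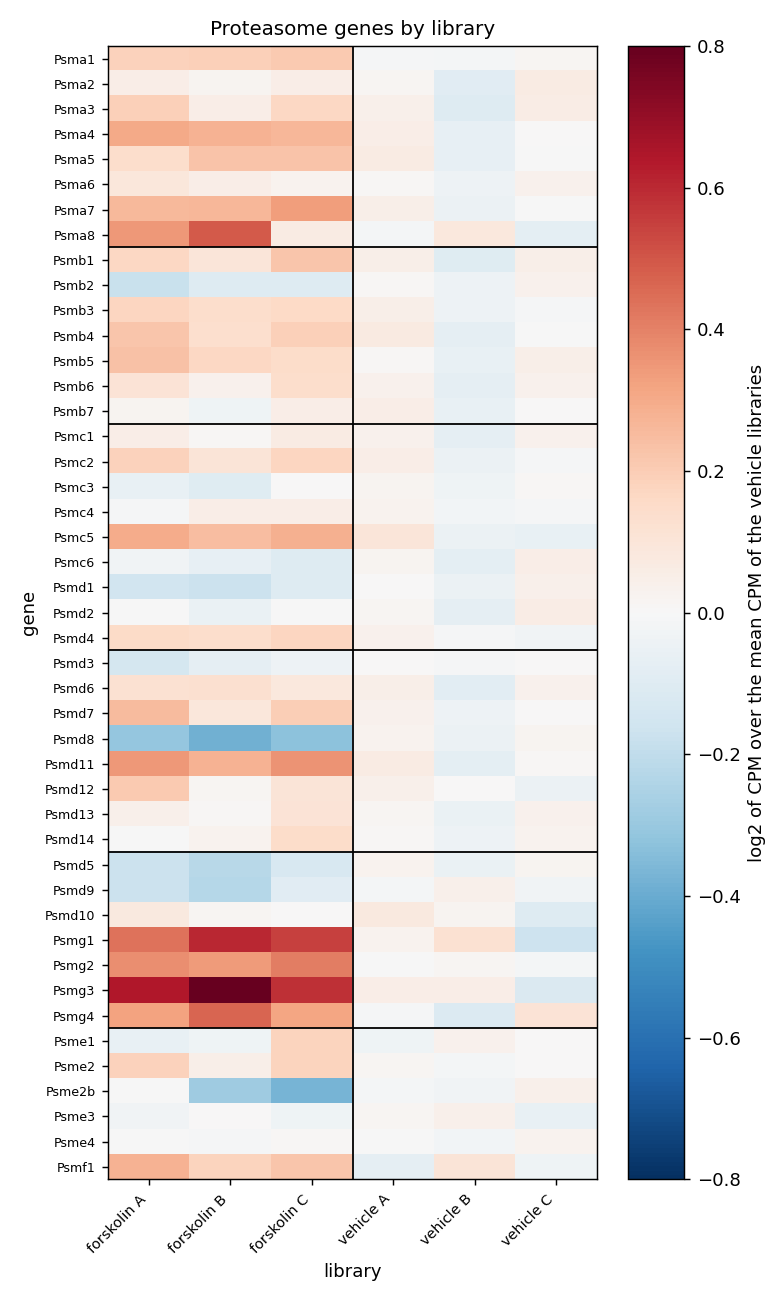
Level in each library of the 45 tested proteasome genes other than Psmc3ip, as log2 of its CPM over the mean CPM of the 3 vehicle libraries (colour), with forskolin libraries left of vehicle libraries. Black lines part, from the top, the alpha ring, beta ring, base, lid, assembly chaperones and other activators with the inhibitor. The rows Psmg1 to Psmg4 are red in all 3 forskolin libraries, and the rows Psmd8, Psmd1 and Psmd5 are blue in all 3.

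In the regulatory particle 5 of 17 tested genes were higher and 2 were lower, with a median log2 fold change of 0.05. These shares, like those of the core particle, stand against 24.8% called higher and 25.1% called lower over all genes. The summed level was 3275, 3184 and 3305 CPM in forskolin libraries and 3282, 3120 and 3262 CPM in vehicle libraries. The groups overlapped, and the ratio of the means was 1.01. This overlap depends on the scaling. As a share of all deposited counts, without TMM factors, the regulatory particle took 0.325 to 0.335% with forskolin and 0.309 to 0.324% with vehicle, which did not overlap. The core particle took 0.162 to 0.166% with forskolin and 0.139 to 0.149% with vehicle. On library sizes alone the median over all genes was also positive, at 0.051 on the log2 scale. Whether the core and regulatory particles differed in their response was not tested. With library size as a covariate, 2 regulatory genes were higher (Psmc5 and Psmd11) and 2 lower (Psmd1 and Psmd8).

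**Figure D3:**
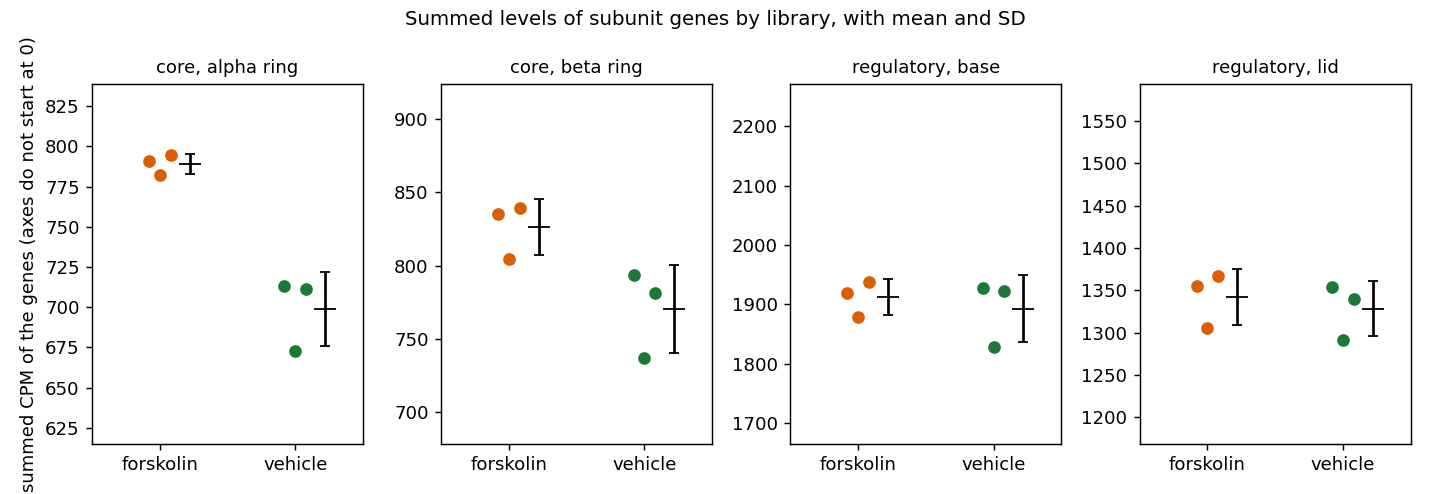
Summed CPM of the genes of the alpha ring, beta ring, base and lid in each forskolin and vehicle library (points), with the mean and SD of 3 libraries (black). The groups are apart for the alpha ring (782 to 794 CPM with forskolin, 673 to 713 CPM with vehicle) and the beta ring (804 to 839 CPM with forskolin, 736 to 794 CPM with vehicle), and overlap for the base and the lid.

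Of the 9 base genes, 3 rose and 1 fell, against 24.8% and 25.1% of all genes. Psmc5 (chromosome 11, 106256185 to 106263112, plus strand), one of the ATPase genes, was at 153, 148 and 151 CPM with forskolin and 133, 120.4 and 119 CPM with vehicle. All its forskolin values were higher, with a log2 change of 0.28 and an SE of 0.0484 (edgeR adjusted p = 0.000113). Psmd4 (chromosome 3, 95032691 to 95042614, minus strand), whose product is a receptor for ubiquitin chains, had 145, 143 and 146 CPM with forskolin and 133, 129 and 127 CPM with vehicle (log2 fold change 0.16, adjusted p = 0.00597). The ATPase gene Psmc2 also rose, by 0.15 on the log2 scale (adjusted p = 0.00764). Psmd1, a scaffold of the base, fell by 0.14 on the log2 scale to 252 ± 6.02 CPM with forskolin, against 278 ± 8.31 CPM with vehicle (adjusted p = 0.00749), and without vehicle C this call was lost (adjusted p = 0.0556). The other large scaffold gene, Psmd2, was at 417, 403 and 417 CPM with forskolin and 422, 398 and 436 CPM with vehicle, with overlap (log2 fold change -0.02, adjusted p = 0.718). The ATPase genes Psmc1, Psmc3, Psmc4 and Psmc6 had log2 fold changes between -0.06 and 0.04 and did not pass.

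In the lid 2 of 8 genes rose and 1 fell, against the same shares of all genes, and the largest changes were of opposite sign. Psmd11 (chromosome 11, 80428615 to 80472133, plus strand), which encodes a lid scaffold known in mammalian cells as a substrate of protein kinase A, was at 170, 162 and 172 CPM with forskolin and 140, 127 and 135 CPM with vehicle. The groups were well apart and the log2 change was 0.33 with an SE of 0.0473 (edgeR adjusted p = 1.39e-05). Psmd8 (chromosome 7, 29174187 to 29180673, minus strand), another structural lid gene, was at 231, 220 and 229 CPM with forskolin and 292, 278 and 291 CPM with vehicle. It fell by 0.34 in log2 terms (SE 0.0415, adjusted p = 1.97e-06), with every forskolin library below every vehicle library. Psmd7, the structural partner of the lid's deubiquitinase, rose by 0.18 on the log2 scale (adjusted p = 0.00388), while the deubiquitinase gene Psmd14 had a log2 fold change of 0.06 (adjusted p = 0.335). Psmd13, with the smallest change of the lid, was at 162, 158 and 169 CPM with forskolin and 159, 152 and 160.5 CPM with vehicle (log2 fold change 0.05, adjusted p = 0.332). Psmd12 was at 142, 123 and 131 CPM with forskolin and 126, 123 and 119 CPM with vehicle (log2 fold change 0.11, adjusted p = 0.093), with overlap, and passed with library sizes alone (0.0203) or without forskolin B (0.0301). The remaining lid genes, which encode structural subunits, were close to the threshold or short of it: Psmd6 had a log2 fold change of 0.11 (adjusted p = 0.0539, and 0.00985 with library sizes alone) and Psmd3 of -0.08 (adjusted p = 0.1, and 0.0491 without forskolin C).

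Among the 7 assembly chaperones, the 4 that build the alpha ring (Psmg1 to Psmg4) were called higher, and of the 3 of the base, Psmd5 and Psmd9 were called lower. Over all genes 24.8% were called higher and 25.1% lower. The products of Psmg1 and Psmg2 form a pair, as do those of Psmg3 and Psmg4. Psmg3 (chromosome 5, 139823613 to 139826894, minus strand) was at 23.1, 25.8 and 22.2 CPM with forskolin and 15.4, 15.4 and 13.7 CPM with vehicle, a 1.60-fold rise (log2 fold change 0.68, SE 0.0987, edgeR adjusted p = 1.63e-05). Reads of Gm26938, whose exons cover 26.8% of the Psmg3 exon bases on the same strand, can enter these counts. Psmg1 (chromosome 16, 95979933 to 95990960, minus strand) was at 25.5, 28.7 and 27.6 CPM with forskolin and 19.3, 20.5 and 16.9 CPM with vehicle, a 1.44-fold rise (log2 fold change 0.53, SE 0.0935, adjusted p = 0.000125). In both genes the groups were far apart relative to the spread within them, and these were the 2 proteasome genes that also passed a test against a 1.2-fold change. Psmg2 rose by 0.37 on the log2 scale to 27.6 ± 0.649 CPM with forskolin, against 21.3 ± 0.237 CPM with vehicle (adjusted p = 0.000841). Psmg4, the least abundant, rose by 0.38 on the log2 scale to 11.5 ± 0.698 CPM with forskolin, against 8.90 ± 0.685 CPM with vehicle (adjusted p = 0.0188). The Psmg4 call was lost without forskolin B (adjusted p = 0.0804), vehicle A (0.0533) or vehicle B (0.0857).

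The chaperones of the base went differently. Psmd5 fell by 0.17 on the log2 scale to 124 ± 3.88 CPM with forskolin, against 140 ± 4.37 CPM with vehicle (edgeR adjusted p = 0.0043). Psmd9 fell by 0.17 on that scale (adjusted p = 0.0283), a call lost without forskolin B (0.123) or any one vehicle library (0.0579 to 0.114) and with library sizes alone (0.102). Psmd10, which encodes gankyrin, was at 42.6, 40.9 and 40.6 CPM with forskolin and 42.7, 41.0 and 37.6 CPM with vehicle, with overlap (log2 fold change 0.03, adjusted p = 0.741). Pomp, the maturation factor that acts at the beta ring and lies outside the symbol rule, fell by 0.17 on the log2 scale to 78.7 ± 2.01 CPM with forskolin, against 88.6 ± 3.51 CPM with vehicle (adjusted p = 0.0104), a call lost without vehicle A (0.0528) or vehicle C (0.0612).

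Of the 6 genes for other activators and the inhibitor, 1 passed, against 49.9% of all genes. Psmf1, which encodes a protein that inhibits the core particle in vitro, was at 53.0, 49.6 and 51.1 CPM with forskolin and 41.6, 47.0 and 42.8 CPM with vehicle, without overlap (log2 fold change 0.22, SE 0.0658, edgeR adjusted p = 0.0089). Without vehicle A its adjusted p was 0.0531. Psme4, the gene of a large single-chain activator, was at 214, 213 and 216 CPM with forskolin and 214, 211 and 218 CPM with vehicle, with a log2 fold change of 0.00 (SE 0.0398, adjusted p = 0.995). Psme1 and Psme2, whose products form the interferon-inducible activator, had log2 fold changes of 0.03 and 0.14, and Psme3, which encodes its nuclear relative, of -0.02. None of these 3 passed, though Psme2 did without forskolin B (adjusted p = 0.0424) and with library sizes alone (0.0255). Psme2b, a near copy of Psme2, was at 34.7, 28.6 and 26.9 CPM with forskolin and 34.4, 34.2 and 35.7 CPM with vehicle. Forskolin A stood with the vehicle libraries, the log2 change of -0.21 fell just short (adjusted p = 0.0501), and without forskolin A it passed (-0.32, adjusted p = 0.00159). Psmc3ip was at 5.72 ± 0.611 CPM with forskolin and 4.71 ± 0.453 CPM with vehicle (adjusted p = 0.199). With library size as a covariate, the calls of Psmf1 (adjusted p = 0.0948), Psmg4 (0.167) and Psmd9 (0.245) were lost.

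Levels were compared between genes per kilobase of the deposited exon length. In forskolin libraries the 15 tested core genes ran from 171 CPM per kilobase for Psmb4 to 4.28 for Psma8, with a median of 117, and in vehicle libraries from 151 for Psmb7 to 3.45 for Psma8, with a median of 104. Psmb7, at 152 ± 4.83 CPM per kilobase with forskolin and 151 ± 6.07 with vehicle, and Psmb4, at 171 ± 5.09 with forskolin and 151 ± 7.46 with vehicle, differed beyond their spread in forskolin libraries and not in vehicle libraries. With vehicle the genes from Psma2 (124) down through Psmb6, Psma6, Psmb1, Psmb3 and Psmb5 to Psmb2 (102) formed a run in which no neighbour differed from the next beyond the SD. Psma7, Psma5 and Psma3 stood below the others, apart from Psma8, at 74.7, 50.5 and 30.1 CPM per kilobase with vehicle. Psma3 is listed with 2385 bases of exon, and the GENCODE transcript matched to its accession has 859. Listed and matched lengths were 1582 and 914 bases for Psma7, 936 and 2911 for Psma2 and 1028 and 1758 for Psmb1. The levels per kilobase, and the order of the genes by them, therefore depend on the listed lengths.

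The regulatory genes were closer together than the core genes. The low end of the core range was set by the scarce Psma8 and by Psma3, whose listed length exceeds its matched transcript. The next lowest core gene, Psma5, was at 58.0 CPM per kilobase with forskolin and 50.5 with vehicle. In forskolin libraries the regulatory genes ran from 154 ± 5.28 CPM per kilobase for Psmc3 to 77.2 ± 5.32 for Psmd12, a ratio of 2.0. In vehicle libraries they ran from 191 ± 5.20 for Psmd8 to 71.5 ± 2.11 for Psmd12, a ratio of 2.67. With forskolin Psmd8 stood at 151 ± 4.01, within the spread of Psmc3, and with vehicle it led the order, beyond the spread of Psmc3 at 160 ± 3.05. Of 16 neighbouring pairs in the order, 11 with forskolin and 10 with vehicle did not differ beyond the SD. The median level was 106 CPM per kilobase with forskolin and 101 with vehicle. Here too the order depends on the listed lengths, as for Psmd11 (1728 bases listed, 2848 in the matched transcript) and Psmc6 (1548 and 2234). The chaperones of the alpha ring were rarer than every tested subunit gene other than Psma8, with 21.0 to 27.4 CPM per kilobase in forskolin libraries and 16.2 to 20.3 in vehicle libraries.

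**Figure D4:**
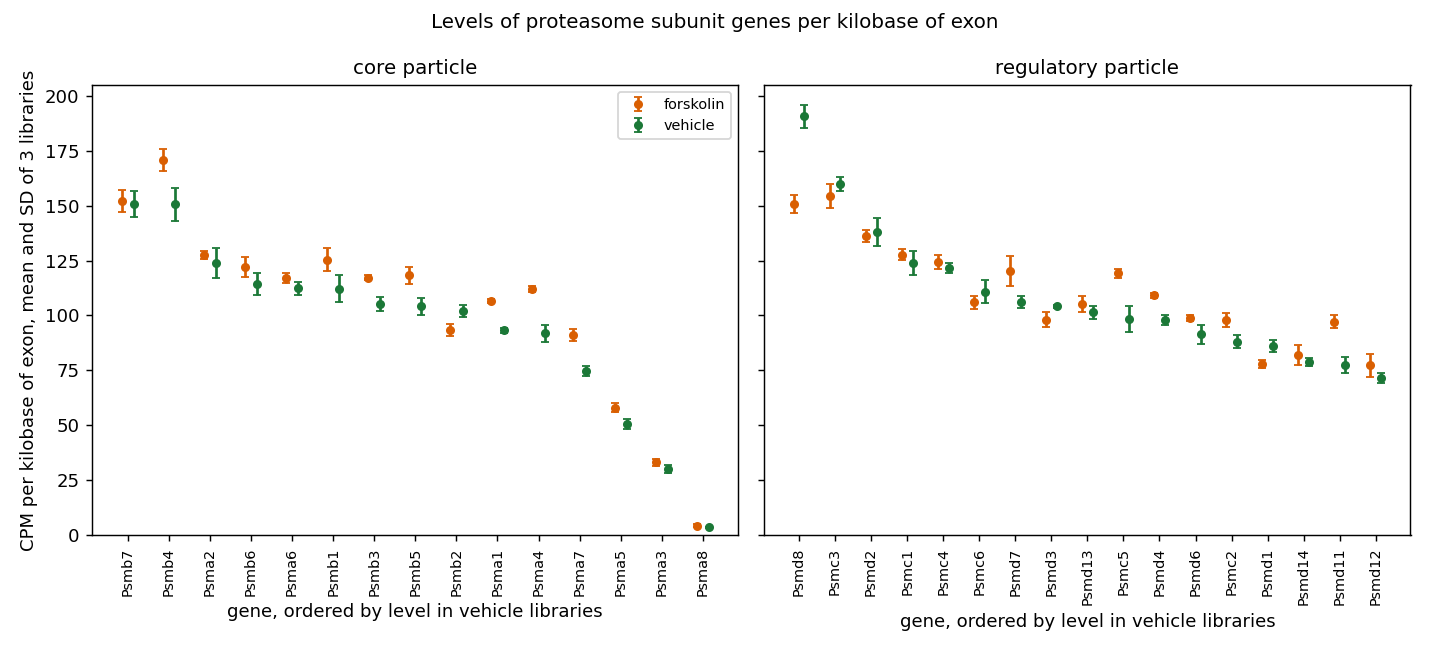
Mean level in CPM per kilobase of exon (y axis, SD over 3 libraries as bars) of the tested core genes (left) and regulatory genes (right) in forskolin and vehicle libraries, ordered by the vehicle level. Psmd8 is at 151 with forskolin and 191 with vehicle, the highest vehicle level. The regulatory genes span a narrower range than the core genes, of which Psma8 and Psma3 are the lowest.

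Most of these genes were densely counted. Of the 32 tested genes of both particles, 28 had over 1 count per base of exon, up to 2.22 for Psmd8. The 875 other tested genes between 1 count per base and that value had a median log2 fold change of 0.00, with 23.3% higher and 29.7% lower. Across the 32 genes the log2 fold change was lower where counts per base were higher (Pearson's r = -0.47, Spearman's rho = -0.39), a description across genes that share the same libraries and are not independent replicates. The least dense gene, Psma8 (0.0499 counts per base, log2 fold change 0.31), and the densest, Psmd8 (-0.34), lie at the ends of this range. No coefficient was computed without them.

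Some counts are uncertain because of pseudogenes or overlapping genes. Of the 47 genes 16 had under 95% of their 50-base stretches unique among GENCODE M21 transcripts. The lowest shares were 21.5% for Psma3, 30.7% for Psme2b, 40.7% for Psme2, 42.9% for Psmb5 as given above, 44.2% for Psmb3 and 44.6% for Psma5. Psma4 had 68.5%, Psmd2 73.9%, Psmc1 82.4%, Psmd11 81.1%, Psmd13 84.2% and Psmd1 91.6%. Psme1 had 85.9% and Psmc3ip 72.9%. For Psmb7, 34.9% of exon bases overlapped Nek6 on the other strand. Reads of overlapping genes cannot be told apart where strand is not kept. Psma1, Psma7, Psmb2, Psmb4, Psmc5, Psmd4, Psmd8, Psmf1, Psmg1, Psmg2 and Psmg4 were 100% unique, with no exon overlap.

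Other genes of the system did not move as a block. Of 16 tested subunits and binding partners outside the symbol rule, 6 rose and 5 fell, against 24.8% and 25.1% of all genes, with a median log2 fold change of -0.04. Zfand2a, which encodes a proteasome-binding protein induced by arsenite, fell by 0.47 on the log2 scale to 81.1 ± 4.44 CPM with forskolin, against 112 ± 3.15 CPM with vehicle (edgeR adjusted p = 4.49e-07). The ubiquitin shuttle gene Ubqln1 fell by 0.24 on that scale (adjusted p = 0.000136). Adrm1 and Sem1, subunit genes of the regulatory particle, had log2 fold changes of -0.05 each and did not pass, nor did the deubiquitinase genes Uchl5 (-0.15, adjusted p = 0.0784) and Usp14 (-0.02, adjusted p = 0.797). Counts of Adrm1 (22% of stretches unique) and Usp14 (54.7%) are uncertain for the same reasons as above.

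Of 14 genes that control proteasome transcription, 7 rose and 2 fell, against 24.8% and 25.1% of all genes. Those that fell were Foxm1, the gene of a proliferation-associated factor (log2 fold change -0.42, edgeR adjusted p = 0.00998), and Nfya, the gene of a subunit of NF-Y (-0.29, adjusted p = 0.000918). Foxm1 was at 20.5, 30.8 and 35.2 CPM with forskolin, a wide spread, and 37.6, 42.0 and 36.4 CPM with vehicle. Of the other NF-Y subunit genes, Nfyb rose by 0.50 on the log2 scale (adjusted p = 0.000164) and Nfyc did not pass (-0.13, adjusted p = 0.187). Nfe2l1 itself was at 424 ± 19.1 CPM with forskolin and 427 ± 4.96 CPM with vehicle (log2 fold change -0.01, edgeR adjusted p = 0.823). Of the enzymes that process its protein, the protease gene Ddi2 was at 109 ± 8.41 CPM with forskolin and 109 ± 3.84 CPM with vehicle (adjusted p = 0.991), and the deglycosylase gene Ngly1 rose by 0.60 on the log2 scale to 35.7 ± 0.95 CPM with forskolin, against 23.4 ± 1.45 CPM with vehicle (adjusted p = 3.87e-06). Nfe2l2, the gene of a related factor of the oxidative stress response, rose by 0.45 on the log2 scale to 359 ± 18.7 CPM with forskolin, against 263 ± 6.93 CPM with vehicle (adjusted p = 1.46e-07). Stat3 rose by 0.39 on that scale (adjusted p = 1.03e-06).

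The ubiquitin genes Ubb and Rps27a, with log2 fold changes of 0.09 and 0.11, did not pass (edgeR adjusted p of 0.112 and 0.0792), but did with library sizes alone (0.0208 and 0.0161). Their counts are uncertain too, with 39.0% of 50-base stretches unique for Ubb and 28.0% for Rps27a. Of 8 tested genes of the p97 segregase and its cofactors 3 rose on the log2 scale, Nploc4 by 0.19 (adjusted p = 0.00121), Ubxn1 by 0.19 (0.00256) and Faf2 by 0.13 (0.0281), against 24.8% of all genes. The Faf2 call was lost without forskolin B (adjusted p = 0.114), vehicle A (0.122) or vehicle C (0.0628), with DESeq2 (0.081) and with the library size covariate (0.0675), and the Ubxn1 call was lost with that covariate (0.0616). The immunoproteasome genes did not pass either: Psmb8 was at 29.6 ± 5.28 CPM with forskolin and 31.2 ± 2.06 CPM with vehicle, Psmb9 at 2.40 ± 0.568 CPM with forskolin and 2.63 ± 0.636 CPM with vehicle, and Psmb10 at 24.7 ± 2.28 CPM with forskolin and 21.9 ± 1.62 CPM with vehicle (adjusted p of 0.569, 0.731 and 0.132). Single libraries decided 2 of these: without forskolin C Psmb8 was lower (log2 fold change -0.23, edgeR adjusted p = 0.0298), and without forskolin A Psmb10 was higher (0.25, adjusted p = 0.0281).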

How the data were processed

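Polyadenylated RNA of stellate cells was sequenced in 3 forskolin and 3 vehicle libraries. The kit was NEBNext Ultra, per the labels' protocols, and strandedness is not stated there. The authors deposited estimated counts (expected counts) per gene and library, made with STAR and HOMER on mm10, per the submitters' processing notes, which give no versions or settings; from the values, no scaling had been applied. Per the file headers each row also has a transcript's position and length. Deposited values are multiples of 0.5, 31.8% of them not whole, and were rounded before testing. edgeR 4.0.16 (R 4.3.3) was run after filterByExpr (count at least 10, total at least 15) and TMM scaling, with a quasi-likelihood F test on group. Two-sided p-values were adjusted by the Benjamini-Hochberg method over 13357 genes and called under 0.05. Standard errors (SE) come from the F statistic. The biological coefficient of variation was 4.44%. Precision is limited by 3 libraries per group; SE of log2 fold changes was 0.0413 to 0.0584 for subunit genes other than Psma8. The fit was tested on simulated counts. Alternatives included DESeq2 1.42.0, other scalings and filters, a library size covariate, the replicate letter as a block and leaving out each library.

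Genes, lists and the naming rule were chosen with earlier results of these data known. The rule takes, per class, the 2 largest and the smallest changes, the catalytic subunits, the extremes of level, set companion genes and up to 3 of each companion list by smallest adjusted p; others named were chosen after their values were seen. Some companion genes are not reported here. Stretches of 50 bases were matched over GENCODE M21 transcripts on GRCm38, the assembly of mm10.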

Additional observations from a re-analysis of the deposited data

How the results depend on the processing

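Under 16 alternatives all 23 called proteasome genes kept their direction, and 10 of them (Psma1, Psma4, Psma7, Psmc5, Psmd5, Psmd8, Psmd11, Psmg1, Psmg2 and Psmg3) kept the call under each of the 15 other than the test against a 1.2-fold change. That test asks for a larger change. It called 0 core and 0 regulatory genes (edgeR's glmTreat; at an unadjusted p under 0.05 0 core genes, 1 regulatory gene higher and 1 lower) and, of chaperones, activators and inhibitor, 2 higher and 0 lower, of companion genes 5 higher and 1 lower, and of all genes 1362 higher and 1548 lower. DESeq2, tested against no change, called 20 of the 23. With library size as a covariate, 3 core, 2 regulatory, 3 chaperone or activator, 6 companion and 1998 of all genes were higher, and the core median was 0.10; depth and group are nearly confounded here, and the cause was not tested. The 1 lower core gene, Psmb2, was lost (0 called) with library sizes alone, upper-quartile factors, DESeq2, no filter, unrounded counts, the library size covariate, the 1.2-fold test and the replicate block. Lower chaperone and activator genes were 1 rather than 2 with library sizes alone, upper-quartile factors and DESeq2. With library sizes alone the companion median was 0.062 rather than 0.019.

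With each library left out, core genes called higher ranged from 6 (without vehicle B) to 9, and the core median from 0.14 to 0.19. The other counts ranged from 0 to 1 (core lower), 5 to 6 (regulatory higher) and 1 to 3 (regulatory lower). They were 3 to 5 and 1 to 3 (chaperones and activators higher and lower) and 13 to 17 and 5 to 9 (companion higher and lower).

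The replicate letters are not stated to mark shared animals, cultures or days, and deviations from group means correlated at 0.0291, 0.0203 and 0.0377 for A, B and C, too little to pair the libraries, though each library correlated best with its own letter. With the letter as a block 23 proteasome genes were called, 22 of them shared (Psma3 was gained and Psmb2 lost), and core genes called lower were 0.

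Genes that turned sign mainly had changes near 0, but Psma3 (0.14 in the main fit) and Psmb9 (-0.12) also turned. The values below are for genes taken by the naming rule. Psma3, Psmc1, Psme1 and Psme3, which turned too, are not among them. None of the values with the turned sign passed, while Psmb8 passed with its own sign, lower with forskolin, without forskolin C (adjusted p = 0.0298). With library sizes alone and upper-quartile factors the log2 fold changes were 0.042 and 0.028 for Ddi2, 0.030 and 0.017 for Nfe2l1, 0.023 and 0.0089 for Psmd2, 0.043 and 0.029 for Psme4, and 0.025 and 0.012 for Usp14. With the 1 CPM filter and unrounded counts they were 0.00044 and 0.00088 for Ddi2 and 0.00092 and 0.0015 for Psme4. With the library size covariate they were -0.043 for Psma2, -0.048 for Psmb7 and 0.025 for Psmb9. With each library left out they ranged from -0.055 to 0.050 for Ddi2, -0.046 to 0.013 for Nfe2l1, -0.017 to 0.043 for Psmb7, -0.23 to 0.0029 for Psmb8, -0.30 to 0.034 for Psmb9, -0.015 to 0.072 for Psmd10, -0.056 to 0.011 for Psmd2, -0.012 to 0.015 for Psme4 and -0.061 to 0.021 for Usp14.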
